A study of Mus musculus with 2 samples.

Results

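Bile acids are made from cholesterol in the liver, and the genes described here encode the enzymes of that route and the receptor that senses its products. The set was fixed as 10 gene symbols: Cyp7a1, Cyp8b1, Cyp27a1, Cyp7b1, Hsd3b7, Akr1d1, Amacr, Baat, Slc27a5 and Nr1h4, matched by Ensembl gene ID to GENCODE mouse release M21. Of these, 9 were found among the 20505 listed genes, and Hsd3b7 was not analysed here. The libraries were made from primary hepatocytes of C57BL/6 mice, isolated by collagenase perfusion and cultured in DMEM with serum. All cells had received an adenovirus overnight, carrying β-Gal, a bacterial enzyme that serves as control, in one group and HuR, an RNA-binding protein encoded by Elavl1, in the other. Each group was 1 library, and the sources used here do not give the number, age or sex of the animals or the cells per culture. No value below has a replicate, no test between groups was possible, and intervals in parentheses are 95% counting intervals. They cover counting error only, not the spread between cultures or infections.

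In the classic route, Cyp7a1 adds a hydroxyl group to cholesterol and sets the rate, while Cyp8b1 steers the product toward cholic acid. In the alternative route, the mitochondrial enzyme Cyp27a1 and then Cyp7b1 act on oxysterols. Hsd3b7 and Akr1d1 modify the sterol ring, Amacr and Cyp27a1 serve side-chain shortening, and Slc27a5 and Baat join the acid to coenzyme A and then to taurine or glycine. Nr1h4 encodes FXR, a nuclear receptor that binds bile acids, pairs with RXR, and restrains Cyp7a1 and Cyp8b1 through the corepressor SHP (Nr0b2) and, in mice, through Fgf15 from the ileum. Hepatocytes in culture are known to lose part of their liver-specific expression, which limits both groups as a model of the liver.

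Steps in the values pointed to totals of 18357017 reads (β-Gal) and 17671386 reads (HuR), by which 1 read on 2 kb of transcript comes to 0.0272 and 0.0283 FPKM (fragments scaled by transcript length and library size). Elavl1 stood at 9.67 FPKM under β-Gal and 4480 FPKM under HuR. The 8 hepatocyte markers, albumin among them, summed to 32900 and 36300 FPKM with a median log2 difference of 0.19, and none was at 0 in either library. Albumin (Alb) alone gave 25400 and 27600 FPKM. Only 1 of the 8 lay below its β-Gal level, Apob, at 137 and 69.3 FPKM (-0.97). The median log2 difference of all 12905 compared genes was -0.17. Genes were compared when they reached 1 FPKM in either library, differences are log2((HuR + 1)/(β-Gal + 1)) on FPKM, and a gene was called lower or higher at 2-fold or more on that scale. A gene that reached 1 FPKM in 1 library alone can differ only toward that library.

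The sequences shown first are the regions around the transcription start (250 bases before to 50 after) of the 4 measured genes that the RefSeq promoter table for GRCm38.p6 holds. Of these, Nr1h4, Cyp8b1 and Akr1d1, were lower in the HuR library and Cyp27a1 was level, so they set sequences of both kinds side by side. Nr1h4 is given at chr10:89506609-89506908 on the minus strand, Cyp8b1 at chr9:121916256-121916555 on the minus strand, Akr1d1 at chr6:37529923-37530222 on the plus strand and Cyp27a1 at chr1:74713285-74713584 on the plus strand. Each is written in the direction of the gene, with capitals for matches to any of the motifs named after the sequences.
Nr1h4: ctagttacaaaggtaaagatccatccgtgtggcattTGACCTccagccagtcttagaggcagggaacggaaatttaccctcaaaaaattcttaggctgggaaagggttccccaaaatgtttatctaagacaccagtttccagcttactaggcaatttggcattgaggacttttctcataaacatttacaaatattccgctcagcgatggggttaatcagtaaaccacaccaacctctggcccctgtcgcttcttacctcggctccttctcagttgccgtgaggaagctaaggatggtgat
Cyp8b1: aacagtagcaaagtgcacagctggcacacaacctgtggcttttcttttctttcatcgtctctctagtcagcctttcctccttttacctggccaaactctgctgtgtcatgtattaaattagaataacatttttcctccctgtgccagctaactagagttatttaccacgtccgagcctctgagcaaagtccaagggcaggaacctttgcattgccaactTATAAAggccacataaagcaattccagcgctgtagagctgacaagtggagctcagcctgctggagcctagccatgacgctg
Akr1d1: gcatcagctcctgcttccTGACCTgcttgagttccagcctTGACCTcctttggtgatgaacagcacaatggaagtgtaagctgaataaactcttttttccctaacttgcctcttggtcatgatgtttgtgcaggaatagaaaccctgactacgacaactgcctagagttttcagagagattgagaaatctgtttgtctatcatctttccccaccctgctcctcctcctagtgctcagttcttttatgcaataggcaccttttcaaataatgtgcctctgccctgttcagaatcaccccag
Cyp27a1: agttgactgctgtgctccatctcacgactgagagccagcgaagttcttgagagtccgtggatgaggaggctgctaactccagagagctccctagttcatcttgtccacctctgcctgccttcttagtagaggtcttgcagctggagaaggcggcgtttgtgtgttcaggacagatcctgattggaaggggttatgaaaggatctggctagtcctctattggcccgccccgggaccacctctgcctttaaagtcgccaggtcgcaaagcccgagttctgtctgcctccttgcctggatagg
Both strands were searched for AGGTCA, the hexamer that many nuclear receptors recognise, which 16.3% of 32851 promoters of the same length hold. It occurred 1 time in the Nr1h4 sequence and 2 times in that of Akr1d1, each on the strand opposite to the gene. The TATA box TATAAA occurred 1 time in Cyp8b1 (13.6% of all promoters), 31 bases before the start. The E-box CACGTG (7.15%) was not in these windows, and neither was the longer LRH-1 site TCAAGGTCA (0.423%), which contains the first hexamer. The direct repeat of that hexamer with 1 base between the copies (0.0396%) and its inverted repeat with 1 base between (0.00913%), to which FXR with RXR is known to bind, were not in them either. Only exact matches to these letters were counted. Variant sites of the same receptors were not searched for, so their absence from these windows is not shown. The Nr1h4 window belongs to a downstream annotated start of the gene. Another coding transcript begins 26927 bases upstream, at position 89533585 of chromosome 10, and FPKM per gene does not separate them.

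Of the 9 measured genes, 8 reached 1 FPKM and were compared, and 4 of those 8 were at least 2-fold lower in the HuR library, where 8.31% of all compared genes were. None of the 8 was at least 2-fold higher, against 5.35% of all compared genes. A threshold of 1.5-fold keeps these 4 by definition, and no further member was added. At that threshold 4 of the 8 were lower and 0 higher, against 23.4% and 12.0% of all compared genes. The lower genes were Nr1h4, Baat, Cyp8b1 and Akr1d1, while Cyp27a1, Slc27a5, Cyp7b1 and Amacr lay within 2-fold. Akr1d1 passed the filter through the β-Gal library alone (2.76 FPKM, and 0.872 FPKM under HuR), so it could not have been called higher. The median log2 difference of the 8 was -0.72, and their range was -2.03 to 0.06. The 4 lower genes all had under 15 FPKM, as did Cyp7b1 and Amacr, while Cyp27a1 and Slc27a5 had over 100 FPKM. Among all compared genes, 9.94% were lower when the geometric mean of both libraries was 1 to 20 FPKM, 5.48% from 20 to 100 FPKM and 1.49% from 100 FPKM upward. Counting intervals lay wholly beyond 2-fold for Nr1h4, Baat and Cyp8b1, so for 3 of the 8, against 6.60% of the compared genes with a length. They lay beyond 2-fold upward for 0 of the 8, against 4.49%.

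**Figure D1:**
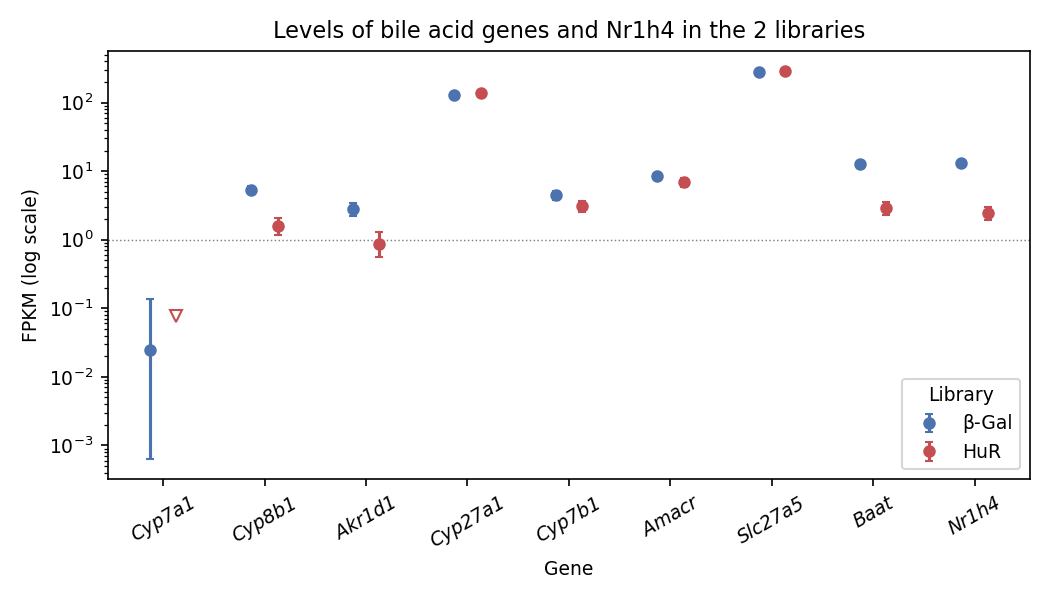
FPKM on a log axis for the 9 measured genes in the β-Gal library (blue) and the HuR library (red); bars are exact 95% Poisson intervals of the reads, the open triangle is the floor of 3 reads for Cyp7a1 at 0 reads, and the dotted line is 1 FPKM. The pairs of Cyp8b1, Akr1d1, Baat and Nr1h4 are apart. The bars of Cyp7b1 are also apart, by less, and the pairs of Cyp27a1 and Slc27a5 lie side by side above 100 FPKM.

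Nr1h4 (ENSMUSG00000047638, chr10:89454234-89533585, minus strand) was farthest below its control level. Its β-Gal level was 12.97 FPKM, from 473 reads, and its HuR level 2.42 FPKM, from 85 reads. The latter was 18.7% (14.6 to 23.6%) of the former, 5.36-fold lower (4.24 to 6.83) with a log2 difference of -2.03. Only 39 of the 12905 compared genes (0.302%) had a lower log2 difference. By level, the receptor went from rank 6385 to rank 10210 of the listed genes.

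The listed RXR genes did not share that difference. Rxra, which encodes an RXR that FXR pairs with, stood at 80.2 and 87.0 FPKM. Rxrb, which encodes another RXR and is named here after its values were seen, stood at 128 and 165 FPKM. The FPKM of Rxra was 6.18 times (5.61 to 6.82) that of Nr1h4 under β-Gal and 35.9 times (28.98 to 45.1) under HuR. These ratios are taken within a library, so that the scaling between the libraries cancels. The size of each ratio depends on the transcript lengths used, which the intervals do not cover. The change of a ratio between the libraries does not depend on them. FPKM ratios of Cyp27a1 to Nr1h4 were 10.1 (9.13 to 11.1) and 56.1 (45.2 to 70.5). Both ratios restate the difference of Nr1h4 from the same reads.

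In the classic route, the step that sets the rate was almost without reads. Cyp7a1 (ENSMUSG00000028240, chr4:6265612-6275633, minus strand) had 1 read in the β-Gal library, or 0.0248 FPKM, and 0 reads in the HuR library. A count of 0 allows up to 3 reads, which is 0.0772 FPKM in the HuR library. With 1 read under β-Gal, a decrease in Cyp7a1 was not detectable at this depth, and a rise above 0.0772 FPKM was not seen. The counting interval of its ratio ran from 0 to 40.5. It did not reach 1 FPKM and entered no count.

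Cyp8b1 (ENSMUSG00000050445, chr9:121914356-121916305, minus strand) had 5.31 FPKM under β-Gal, from 190 reads, and 1.57 FPKM under HuR, from 54 reads. The enzyme's transcript was thus 3.39-fold lower (2.49 to 4.67), with a log2 difference of -1.30, and 3.46% of compared genes lay further down. Akr1d1 (ENSMUSG00000038641, chr6:37530173-37568815, plus strand), the reductase that gives the sterol ring its bent bile acid shape, stood at 2.76 and 0.872 FPKM, from 79 and 24 reads. It was 3.17-fold lower (1.99 to 5.23), so its interval reached just under 2-fold, and its log2 difference of -1.01 lay at the threshold. The call for Akr1d1 was lost in 5 of 9 alternative settings, among them leaving Elavl1 reads out of the library totals and centring on the median of all compared genes (-0.84). The changed filters among the 9 could not move the value of a single gene. A processed pseudogene inside the Akr1d1 span, Gm7463, stood at 0.0996 and 0 FPKM.

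The first enzyme of the alternative route was abundant and level. Cyp27a1 (ENSMUSG00000026170, chr1:74713574-74737892, plus strand) stood at 131 FPKM under β-Gal and 136 FPKM under HuR, from 2654 and 2656 reads. The HuR to β-Gal ratio of Cyp27a1 was 1.04 (0.985 to 1.10), and its log2 difference of 0.06 turned to -0.13 when centred on the hepatocyte markers and to -0.14 with length and GC trends removed. Cyp7b1 (ENSMUSG00000039519, chr3:18071950-18243338, minus strand), which acts on the oxysterols, stood at 4.48 and 3.06 FPKM, from 178 and 117 reads. Cyp7b1 was 1.46-fold lower (1.15 to 1.87), within 2-fold, with a log2 difference of -0.43 that became 0.03 with those trends removed and the median of all genes set to 0.

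Ratios of the alternative-route genes to Cyp8b1 differed between the libraries, while the balance of the routes as such was not measured, since Cyp7a1 could not be compared. The FPKM of Cyp27a1 was 24.6 times (21.2 to 28.7) that of Cyp8b1 under β-Gal and 86.6 times (66.2 to 116) under HuR. By the length of the main coding transcript, Cyp27a1 stood at 76.4 and 79.4 FPKM and Cyp8b1 at 5.31 and 1.57 FPKM. The ratio is then smaller in both libraries, beyond its intervals, which cover counting alone. Cyp7b1 was close to Cyp8b1 in the β-Gal library, at a ratio of 0.843 (0.684 to 1.04), and above it in the HuR library, at 1.95 (1.40 to 2.75). Neither pair of intervals overlapped between the libraries, but both ratios have Cyp8b1, a gene called lower, as divisor. They restate its difference from the same reads.

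The enzymes of the last steps were split in the same way. Slc27a5 (ENSMUSG00000030382, chr7:12988346-12998192, minus strand), the ligase that activates bile acids with coenzyme A, had the highest FPKM of the set at 281 and 290, with a ratio of 1.03 (0.997 to 1.07). Its log2 difference was 0.05, turning to -0.14 when centred on the hepatocyte markers and -0.13 with length and GC trends removed. Baat (ENSMUSG00000039653, chr4:49489422-49506557, minus strand), the transferase that adds the amino acid in the next step, stood at 12.6 FPKM and 2.86 FPKM, from 371 and 81 reads. Baat was 4.41-fold lower (3.46 to 5.68), its log2 difference was -1.82, and 84 of the compared genes (0.651%) lay below it.

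Within a library, the FPKM of Slc27a5 was 22.3 times (20.05 to 24.8) that of Baat under β-Gal and 101 times (81.4 to 128) under HuR. By the length of the main coding transcript, Slc27a5 stood at 152 and 157 FPKM and Baat at 10.4 and 2.36 FPKM. The ratio is then smaller in both libraries. Amacr (ENSMUSG00000022244, chr15:10981756-10996626, plus strand), the racemase that prepares the side chain for peroxisomal shortening, stood at 8.38 and 6.86 FPKM. Its ratio was 0.818 (0.673 to 0.989), within 2-fold. Reads of Amacr and Slc27a5 are estimates, since their values did not come out as whole reads with the annotated lengths, while those of the 7 other measured genes did, to within 0.02 of a read.

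**Figure D2:**
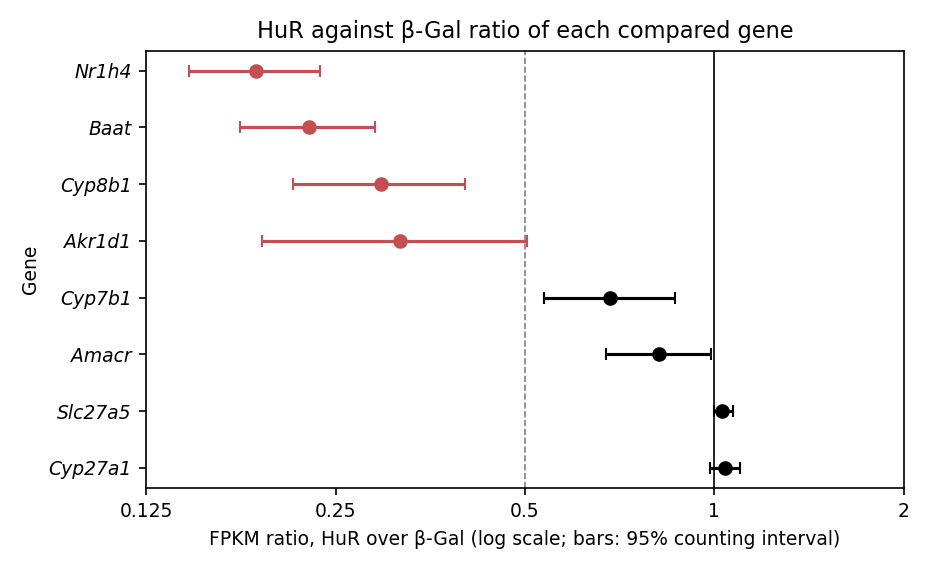
Ratio of FPKM in the HuR library to FPKM in the β-Gal library on a log axis for the 8 compared genes, with 95% counting intervals; red marks genes called at least 2-fold lower, the dashed line is 0.5 and the solid line 1. Nr1h4, Baat and Cyp8b1 lie wholly below 0.5, Akr1d1 reaches 0.504, and Cyp27a1 and Slc27a5 lie at 1.04 and 1.03.

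The order of the levels changed with these differences. In the β-Gal library it was Slc27a5, Cyp27a1, Nr1h4, Baat, Amacr, Cyp8b1, Cyp7b1, Akr1d1 and Cyp7a1, from highest to lowest FPKM. The neighbours Nr1h4 and Baat, and Cyp8b1 and Cyp7b1, did not differ beyond their counting intervals. In the HuR library Amacr and Cyp7b1 came next after Slc27a5 and Cyp27a1, followed by Baat, Nr1h4, Cyp8b1 and Akr1d1. From Cyp7b1 down to Akr1d1, each gene there overlapped with the next in its counting interval. Dividing by the length of the main coding transcript in place of the mean annotated length put Cyp27a1 at 76.4 and 79.4 FPKM and Slc27a5 at 152 and 157 FPKM. They remained the highest of the set in both libraries, and Cyp8b1 and Amacr, at 5.31 and 5.22 FPKM, then changed places under β-Gal, as did Nr1h4 and Baat, at 2.45 and 2.36 FPKM, under HuR.

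Slc27a5 and Cyp27a1 made up 89.8% of the summed FPKM of the 9 genes under β-Gal and 96.02% under HuR. The summed level of all 9 was therefore nearly equal, at 458 and 443 FPKM. The other 7 genes summed to 46.5 FPKM under β-Gal and 17.6 FPKM under HuR, 2.64-fold lower.

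**Figure D3:**
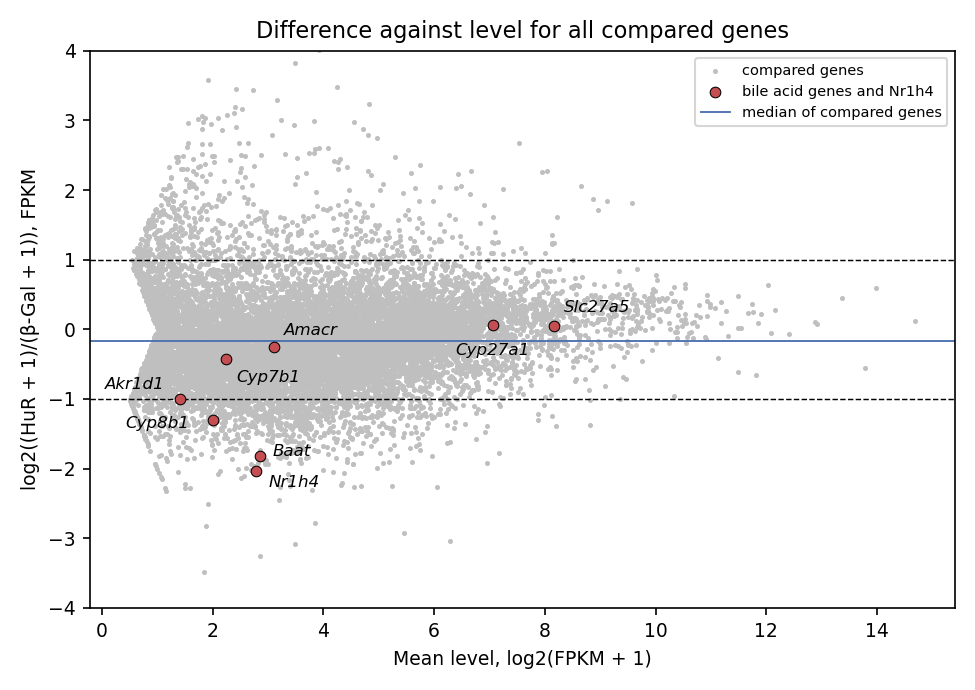
Log2 difference (HuR against β-Gal, pseudocount of 1 FPKM) against the mean of log2(FPKM + 1) over both libraries for the 12905 compared genes (grey) and the 8 compared bile acid genes (red); dashed lines mark 2-fold, the blue line the median of -0.17, and 14 genes lie outside the plotted range. Nr1h4 and Baat sit at the lower edge of the genes of their level, and Cyp27a1 and Slc27a5 near the middle.

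Position and transcript structure were compared next. The 9 genes lie on 8 chromosomes, with Cyp7a1 and Baat both on chromosome 4 but far apart. Baat has related acyltransferase genes beside it, Acnat1 at chr4:49447105-49473912, 15509 bases away, and Acnat2 at chr4:49379840-49408151, 81270 bases away, all on the minus strand. Acnat1 stood at 8.21 and 1.82 FPKM (4.51-fold lower, 3.06 to 6.83) and Acnat2 at 1.60 and 0.312 FPKM (5.13-fold lower, 2.12 to 15.02). All 3 genes of the cluster were thus below their β-Gal level. Acnat2, from 32 and 6 reads, had a log2 difference of -0.99 and was not called. How the authors' counting treated reads shared by these related genes is not given in the sources used here.

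HuR binds AU-rich RNA, so the annotated 3′ untranslated regions were searched for ATTTA, in DNA letters the core of AU-rich elements. Sequences of 30 bases around the matches are shown for the lower genes that had one, Nr1h4 and Akr1d1, and for the level gene Cyp27a1. They come from the GENCODE M21 transcripts (GRCm38), in the direction of the gene, with the match in capitals. The Nr1h4 site lies at chr10:89454603-89454632, that of Akr1d1 at chr6:37567345-37567374, and those of Cyp27a1 at chr1:74737856-74737885 and, overlapping, chr1:74737863-74737892.
Nr1h4: atctcaatgaatATTTAtgtggcaattata
Akr1d1: agattcatctttATTTAatctatctggata
Cyp27a1, site 1: tccttgggtatgATTTAaaataaaatttaa
Cyp27a1, site 2: gtatgatttaaaataaaATTTAaaattcaa
The lower genes were not those with most matches. Nr1h4 had 1 in a region of 476 bases and Akr1d1 1 in 1649 bases, while Baat, with 398 bases, and Cyp8b1, with 406 bases, had 0. Among the genes within 2-fold, Cyp27a1 had 2 in 233 bases, Cyp7b1 2 in 507 bases, Amacr 3 in 1377 bases and Slc27a5 0 in 130 bases. Cyp7a1, whose level could not be compared, had 9 in 2600 bases. None of the 9 held the longer element TTATTTATT, which 7.0% of 10977 compared protein-coding genes with such a region hold. Of those genes 65.7% had at least 1 ATTTA, their median length was 948 bases, and lower calls made up 4.64% of those with 0 matches, 6.68% of those with 1 or 2 and 12.9% of those with 3 or more. These shares were not adjusted for the length or base content of the regions. A match is a run of letters and not a measured HuR site, and binding was not measured in these libraries.

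Among other enzymes and carriers of the route, 17 were listed and 15 compared, of which 12 lay below their β-Gal level, against 60.7% of all compared genes. The 2-fold threshold was passed downward by 2 of the 15 and upward by 0, where the shares over all compared genes were 8.31% and 5.35%. Their median was -0.41, against -0.17 for all compared genes. Besides Acnat1, the lower call was Abcd3, a peroxisomal membrane transporter that imports bile acid precursors, at 58.6 and 21.4 FPKM (2.74-fold lower, 2.53 to 2.97). Hsd17b4, the peroxisomal enzyme that shortens the side chain, stood at 177 and 103 FPKM with a log2 difference of -0.77. The sulfotransferase gene Sult2a8 stood at 8.18 and 3.95 FPKM, at -0.89.

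Partners and regulators of FXR were listed as 21 genes, of which 14 were compared, 9 lay below their β-Gal level, 1 was called lower and 0 were called higher, with a median of -0.23. The lower one was Nr1i2, which encodes the xenobiotic and bile acid sensor PXR, at 9.94 and 3.19 FPKM (3.12-fold lower, 2.58 to 3.78). Nr5a2, which encodes LRH-1, an activator of Cyp8b1, stood at 11.8 and 5.71 FPKM (2.07-fold lower, 1.76 to 2.43) with a log2 difference of -0.93. Hnf4a, a main driver of hepatocyte genes, stood at 92.01 and 73.5 FPKM. Fgfr4, the receptor for Fgf15, stood at 33.1 and 21.8 FPKM. Zfp36l1, an RNA-binding protein that promotes decay of mRNAs with AU-rich elements, stood at 106 and 78.5 FPKM, a log2 difference of -0.42. None of Nr5a2, Hnf4a, Fgfr4 and Zfp36l1 was called on the log2 scale with the pseudocount. Over all compared genes, 60.7% lay below their β-Gal level, 8.31% were called lower and 5.35% higher.

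Genes reported as FXR targets lay on both sides of their β-Gal levels. Of 17 listed, 15 were compared, 5 lay below their β-Gal level, 1 was called lower and 0 were called higher, and the median was 0.24. The list includes plasma protein genes, among them Fgb, which is also a hepatocyte marker here, so its median depends on its makeup. Over all compared genes, 60.7% lay below, 8.31% were called lower and 5.35% higher. Nr0b2, the gene of SHP, stood at 1.40 and 0.300 FPKM, 4.65-fold lower (1.90 to 13.7), but from 29 and 6 reads and with a log2 difference of -0.88 that was not called. The lower call was Vldlr, a lipoprotein receptor, at 6.12 and 2.34 FPKM (2.62-fold lower, 2.13 to 3.23). Slc51a, a subunit of the bile acid exporter of the basolateral membrane, named here after its values were seen, did not reach 1 FPKM, at 0.511 FPKM from 17 reads under β-Gal and 0.0354 FPKM from 1 read under HuR (14.4-fold lower, 2.56 to 684). Pltp, a phospholipid transfer protein, stood at 4.35 and 8.98 FPKM, and the lipoprotein receptor gene Scarb1 at 82.1 and 143 FPKM, both above their β-Gal level and not called.

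Transporters of bile acids and of their bile partners were listed as 14 genes. Of the 11 compared, 0 were called in either direction, yet all 11 lay below their β-Gal level, as 60.7% of all compared genes did, with a median of -0.64. Some of the 11 reached 1 FPKM under β-Gal alone and could only lie below. The canalicular bile salt pump Abcb11 stood at 5.44 and 3.88 FPKM, and the uptake carrier Slc10a1 at 11.5 and 7.88 FPKM. The phospholipid floppase Abcb4, also listed as an FXR target, stood at 136 and 71.96 FPKM. Abcc2, which exports conjugates into bile, had the lowest difference at -0.98 (103 and 51.5 FPKM). Atp8b1, Abcc4 and Slco1b2 had log2 differences of -0.72, -0.66 and -0.65.

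**Figure D4:**
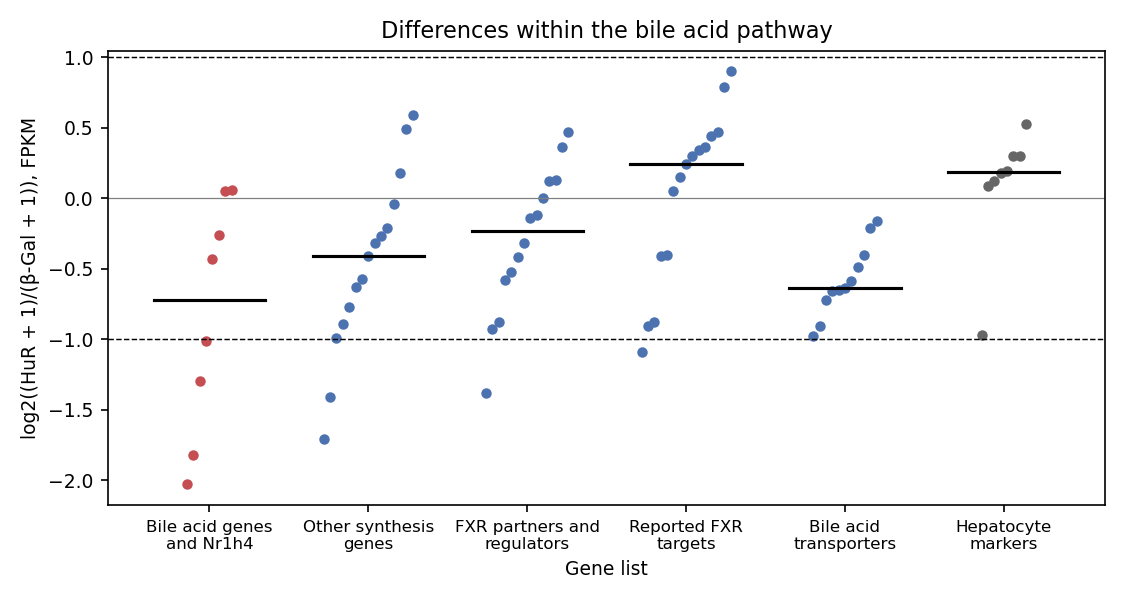
Log2 differences (HuR against β-Gal, pseudocount of 1 FPKM) of compared genes in 6 lists; each point is 1 gene, black bars are medians and dashed lines mark 2-fold. Medians were -0.72 for the bile acid genes with Nr1h4, -0.41, -0.23, 0.24 and -0.64 for the pathway lists from left to right, and 0.19 for the hepatocyte markers. Some genes are in more than 1 list.

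Markers of other cells differed between the libraries as well. In bulk RNA, fewer cells of a type and less RNA per cell cannot be told apart. FXR is also expressed in the ileum, and 5 of 6 compared intestinal markers lay below their β-Gal level, with 3 called lower and 1 higher. Over all compared genes, 60.7% lay below, 8.31% were called lower and 5.35% higher. The higher one was Lct, the lactase gene, at 0.0321 FPKM under β-Gal and 4.18 FPKM under HuR. Lct thus passed the filter through the HuR library alone. Muc2, a lower call at 7.98 and 0.573 FPKM, passed through the β-Gal library alone. The 8 measured intestinal markers summed to 55.6 FPKM under β-Gal (0.0321 to 21.3 each) and 15.8 FPKM under HuR (0 to 4.82 each). The ileal bile acid genes themselves were scarce, Slc10a2 at 0.903 and 0.278 FPKM and Fabp6 at 0.682 FPKM and 0. The part of intestinal RNA in the Nr1h4 difference was not tested.

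Macrophages also express Cyp27a1, and macrophage markers summed to 57.7 and 132 FPKM, with 4 of 6 compared called higher, 0 lower and none of the 10 at 0. Their part in the level of Cyp27a1 was not tested. For this list and those that follow, the shares over all compared genes were 60.7% below, 8.31% called lower and 5.35% called higher. Pericentral hepatocyte markers summed to 686 and 464 FPKM, with 5 of 6 compared below their β-Gal level, 0 called and none of the 9 at 0. Periportal markers summed to 584 and 651 FPKM, with 3 of 9 below, 2 called lower and 1 higher. The part of zonal makeup in the differences of the bile acid genes was not tested. Cholangiocyte markers summed to 70.1 and 84.2 FPKM, of which Spp1 alone gave 50.8 and 71.9 FPKM, while 4 of 6 compared lay below their β-Gal level (2 called lower, 1 higher) and the median was -0.51. Endothelial markers summed to 22.6 and 41.7 FPKM (0 of 6 lower, 2 higher, Clec4g at 0 in the HuR library), and stellate cell markers summed to 11.95 and 1.67 FPKM (4 of 4 lower, Lrat and Pdgfrb at 0 in the HuR library). All 4 compared stellate markers reached 1 FPKM under β-Gal alone, so none of them could have been called higher. The cholangiocyte lower calls, Epcam and Cldn7, also passed through β-Gal alone. The higher calls Krt7 (cholangiocyte) and Sds (periportal) passed through HuR alone. Under β-Gal, Clec4g and Lrat had 1 read each and Pdgfrb had 7. A value of 0 under HuR therefore shows no difference for Clec4g or Lrat.

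Over the 2 libraries, the named protein-coding genes with levels closest to those of Nr1h4 were Adra1b, at 12.2 and 2.39 FPKM, Pik3c2a, at 12.7 and 2.62 FPKM, and Slc35g1, at 12.04 and 2.22 FPKM. Their distances were 0.082, 0.085 and 0.133 on the log2(FPKM + 1) scale. The closest compared genes to Cyp7a1 (Gpa33, Ivl and Sftpa1) were 0.99 to 1.01 away, since a compared gene has at least 1 FPKM in a library. With 2 libraries, such likeness rests on 1 pair of values per gene.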

How the data were processed

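Each library has a table of FPKM values by gene, as the authors deposited it. Per the submitters' processing notes, TopHat2, HTSeq 0.6.1 and GRCm38 were used, with no role stated. The FPKM formula, annotation release, strand setting and filters are not given in the sources. Both tables list the same 20505 genes, none at 0 in the β-Gal table and 2233 (10.9%) at 0 in the HuR table, so that a gene with reads under HuR alone has no place in the background.

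IDs were matched to GENCODE M21 (GRCm38), with 20133 matches. Reads were recovered as FPKM times the rounded mean transcript length times an implied library total, the total that makes most values whole. For 73.3% of matched genes the result was whole in both libraries, to within 0.02. FPKM was not treated as counts, and recovered reads served for intervals, floors, shares, levels by main transcript length and 1 alternative that leaves Elavl1 out of the totals. Intervals of HuR to β-Gal ratios and of ratios within a library are 95% Clopper-Pearson intervals on shares of reads, and those of levels exact Poisson intervals. The floor is 3 reads. Differences use a pseudocount of 1 FPKM, which understates those of low genes, a minimum of 1 FPKM in either library and a 2-fold threshold.

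The members and gene lists were chosen with earlier results of these data known. All measured members are named. From each pathway list the rule names up to 5 genes of at least 1 FPKM by size of difference, and Rxra, Hnf4a, Nr5a2, Nr0b2, Abcb11, Slc10a1 and Zfp36l1 whatever their values; 1 gene that the rule names is not reported here. Other genes named are markers, sites of overlap or nearest levels. Alternatives were pseudocounts of 0.1 and 5, other filters, a 1.5-fold threshold and other centrings. Steps were tested on simulated data (Python 3.11.15, numpy 2.4.6, pandas 2.3.3, scipy 1.17.1, matplotlib 3.10.9).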

Additional observations from a re-analysis of the deposited data

How the results depend on the processing

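Nr1h4 and Baat stayed at least 2-fold lower under all 9 alternatives run on single values, over ranges of -2.37 to -1.28 and -2.10 to -1.16 on the log2 scale. Cyp8b1 lost its call at 1 and Akr1d1 at 5 of them. The 2 changed filters among these 9 alternatives leave the log2 difference of a single gene as it is, so they could not change a call. At a pseudocount of 5 FPKM, which shrinks low genes, the lower members numbered 2 in place of 4, their median was -0.32, and Cyp8b1, Baat and Nr1h4 stood at -0.65, -1.16 and -1.28. Lower calls over all compared genes then numbered 330 and higher calls 260, against 1762 lower calls at a pseudocount of 0.1 FPKM. Centred on the median of all compared genes, 660 genes were lower and 960 higher (40.7% of calls lower, against 60.8% as deposited), and Cyp27a1 and Slc27a5 stood at 0.22 and 0.21. With length and GC trends removed these 2 stood at -0.14 and -0.13. With the median also set to 0, 510 genes were lower, the members' median was -0.35 and Cyp7b1 stood at 0.03. Centred on the hepatocyte markers, 1765 genes were lower, with Cyp27a1 and Slc27a5 at -0.13 and -0.14. At 1.5-fold, 3026 genes were lower and 1555 higher. The 4 of 8 members lower at 2-fold pass this threshold by definition, and no other member joined them. The last 2 centrings, on the hepatocyte markers and with trends removed and the median at 0, were chosen after seeing the data. Depth limits Cyp7a1 most, at 1 and 0 reads. No paired analysis was possible because each group is 1 library, so leaving out a library was not run.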
